A study of Mus musculus with 4 samples.

Results

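Natural killer (NK) cells that carried no transcript of 3 type 1 innate lymphoid cell (ILC1) genes were followed in mammary tumours grown in wild-type hosts and in hosts without Il1a, the gene of interleukin-1α. A barcode was taken as such a cell when it held at least 1 UMI (unique molecular identifier, standing for 1 captured transcript) of Ncr1 or Klrb1c, the genes of NKp46 and NK1.1. It also had to hold no UMI of Cd3d, Cd3e or Cd3g, none of Itga1, Cxcr6 or Gzmc, fewer than 2 of the division genes Mki67 and Top2a together, fewer than 3 of Lyz2, and none of Siglech. Barcodes were kept from 500 UMIs and 250 genes upward if no more than 20% of their UMIs were mitochondrial. Of 14555 kept barcodes, 1718 met the rule: 539 and 494 in the 2 wild-type tumours and 374 and 311 in the 2 knockout tumours.

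NK cells are innate lymphocytes that kill infected and malignant cells without a rearranged antigen receptor. Activating and inhibitory receptors set whether a target is attacked, perforin and granzymes released from granules do the killing, and chemokines and interferon gamma call in other immune cells. ILC1 are close relatives that stay in tissues and are recognised by surface proteins such as CD49a, the product of Itga1. Interleukin-1α is an alarm cytokine that signals through the receptor IL1R1 and its partner IL1RAP.

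The tumours came from H605, a HER2-positive mouse mammary tumour line that was injected into the mammary pad, and were taken at day 14. The wild-type (WT) and Il1a-/- hosts were FVB/NJ mice of 6 to 8 weeks, per the labels, with 2 tumours of each genotype. All 4 hosts received the same H605 cells, so only host cells lack Il1a by label. Live cells of the digested tumour went into single-cell 3′ RNA sequencing without a sort for NK cells, and the labels give 2 collection days, each for a pair of tumours.

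Il1a gave 109 and 128 UMIs over all barcodes of the WT libraries, and 1 and 0 UMIs in the Il1a-/- libraries; NK cells held 0 in every tumour. Depth differed between the genotypes. The libraries held 23462739 and 28999819 mouse UMIs in WT and 6704859 and 15297495 in Il1a-/-, and the median NK cell held 2815 and 3586 UMIs against 1084.5 and 2237. The first Il1a-/- tumour was the shallowest throughout. No NK barcode was shared between any pair of libraries. NK cells that rested on a single UMI of Ncr1 or Klrb1c made up 17.8% and 15.6% of the WT cells, and 55.3% and 32.2% of the Il1a-/- cells. Barcodes rich in fibroblast genes, which should lack both genes, held such a UMI in 0%, 0.51%, 0% and 0% of cases in the order WT 1, WT 2, Il1a-/- 1 and Il1a-/- 2, at a median depth of 3299 to 11389.5 UMIs. Barcodes with phagocyte genes (Csf1r and at least 3 UMIs of Lyz2) held one in 2.05%, 4.74%, 0% and 2.65% of cases. Their median depth was 2217 to 6360.5 UMIs. At the edge of the rule, 92, 75, 40 and 25 further barcodes, in the same order, were set aside for exactly 1 UMI of the ILC1 genes, and 47, 56, 32 and 34 for exactly 1 UMI of a Cd3 gene.

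Of the genes the rule used, Ncr1 was seen in 95.0%, 93.7%, 81.3% and 88.1% of the NK cells of WT 1, WT 2, Il1a-/- 1 and Il1a-/- 2, and Klrb1c in 51.4%, 59.5%, 37.4% and 48.6%. Genes outside the rule gave these cells an NK profile. Levels in the next sentences are CPM, a gene's UMIs summed over the NK cells of a tumour and scaled to a common total, in that order. They describe the cells, with no test, because the gates chose them. Eomes, a transcription factor that NK cells need and most ILC1 lack, stood at 491, 437, 362 and 328 CPM in NK cells and at 47, 67.2, 62.9 and 33.5 CPM in T cells. Gzma, the gene of granzyme A, stood at 1622, 4037, 3331 and 5559 CPM in NK cells and at 5.95, 56.3, 50.3 and 66 CPM in T cells. Both markers were thus above the T cell level in each tumour. Cells of at least 1000 UMIs were also thinned to 1000 UMIs each. Eomes was then seen in 38.3%, 33.3%, 29.4% and 26.7% of these NK cells and in 2.86% to 5.64% of these T cells. Gzma was seen in 46.0%, 67.5%, 64.3% and 80.4% of the NK cells and in 0.269% to 3.34% of the T cells.

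Among genes with a mean of at least 50 CPM over both classes, the largest median ratios over T cells, after Gzma, were those of the receptor genes Klrb1b, Klra4, Klrb1a, Klra7, Klrb1f and Klri2, the signalling adaptor Tyrobp, the integrin Itga2 (CD49b), and Adamts14, Car2 and Vegfa. Tyrobp, the adaptor of many activating receptors, stood at 1775, 1829.8, 1832 and 2074 CPM in NK cells against 77.1, 76.3, 65.1 and 61 CPM in T cells. On the other side stood Cd6, Tnfrsf4, Pdcd1, Cd5, Themis, Izumo1r, Cd8a, Cd8b1, Il13, Il1rl1, Cd4 and Ifi27l2a, with median log2 ratios of NK over T cells between -7.19 and -5.67. Trac, the T cell receptor alpha constant gene, gave 5, 14, 6 and 8 UMIs per tumour. Trbc1, Trbc2 and Trdc were present, at 832 and 819 CPM in WT and 787 and 852 CPM in Il1a-/- NK cells for Trbc1; transcripts of these loci are known in NK cells.

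Against ILC1-like cells, defined by the same rule with at least 1 UMI of Itga1, Cxcr6 or Gzmc (180, 178, 56 and 38 cells), NK cells differed in named genes as follows. Klf2, a transcription factor of circulating lymphocytes, stood at 157, 125, 142 and 177 CPM in NK and 51.6, 21.4, 47.4 and 35.5 CPM in ILC1-like cells. Itgam, Klra4, Ccl3, Ccl4, Ccl5 and Sgk1 were also higher in all 4 tumours. ILC1-like cells had more of Inpp4b, Tmem176a, Tnfsf10, Gpr183, Cdh1, Jaml, Ramp1, S100a4, Ctla4, Tcrg-C4, Rbpj and Agpat5 in all 4 tumours; Inpp4b, a phosphoinositide phosphatase, stood at 155, 112, 52 and 26.6 CPM in NK and 346, 308, 178 and 97.7 CPM in ILC1-like cells. Eomes was also present in the ILC1-like cells, at 365, 282, 201 and 275 CPM. The largest median ratios over ILC1-like cells were those of Col1a1, Col3a1, Sparc and Col1a2, and 36.0% to 96.0% of the Col3a1 UMIs of a tumour's NK cells lay in a single barcode.

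**Figure D1:**
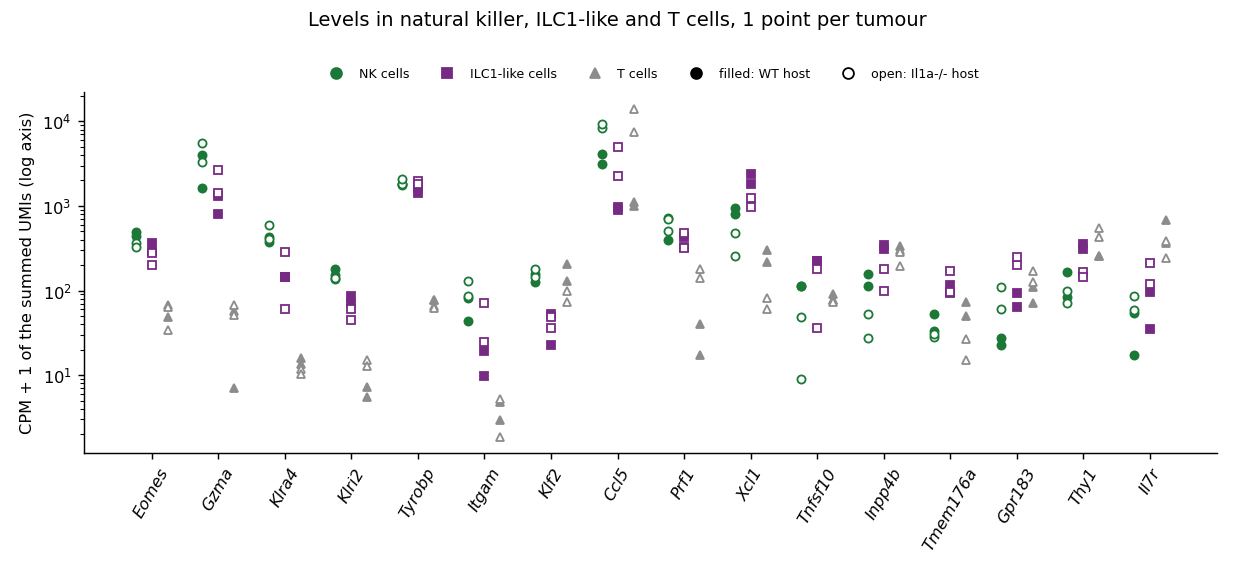
Level of 16 genes in NK cells (circles), ILC1-like cells (squares) and T cells (triangles), as CPM + 1 of the summed UMIs on a log axis, with 1 point per tumour, filled for WT and open for Il1a-/- hosts. The Eomes, Gzma, Klra4, Klri2 and Tyrobp points of NK cells lie above those of T cells, and Inpp4b and Tmem176a lie higher in ILC1-like than in NK cells.

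The first question was whether hosts without Il1a had fewer such cells. NK cells made up 13.5% and 12.3% of the kept barcodes in the WT tumours and 11.6% and 9.33% in the Il1a-/- tumours, with exact (Clopper-Pearson) 95% intervals of 12.4% to 14.6%, 11.3% to 13.4%, 10.6% to 12.8% and 8.36% to 10.4% that cover counting error only. The share was lower in both Il1a-/- tumours, with a mean difference of -2.42 points (12.9% ± 0.81 against 10.5% ± 1.64, SD, n = 2 each). An exact two-sided permutation test gave p = 0.333, the smallest p that 2 tumours against 2 allow. Shares were also taken over barcodes of at least 1000 UMIs, each thinned to 1000 UMIs before the gates were applied. Shallower barcodes were left out. In WT, 3630 of 4001 and 3655 of 4006 barcodes stayed, and in Il1a-/- 2309 of 3213 and 3086 of 3335. The shares were then 14.2% and 12.9% in WT and 8.45% and 7.78% in Il1a-/-, a difference of -5.44 points. The same barcodes without thinning gave a difference of -4.24 points. Per 100 T cells (barcodes with a Cd3 UMI, no Ncr1 or Klrb1c UMI and the same limits on Mki67, Top2a, Lyz2 and Siglech) there were 46.6 and 45.6 NK cells in WT and 25.2 and 20.2 in Il1a-/-. Both of these gates depend on depth, and the ratio was not taken on thinned barcodes. A share falls where other cells rise, so fewer NK cells and more of other cells cannot be told apart.

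NK cells made up 75.0% and 73.5% of the NK and ILC1-like cells together in WT tumours, and 87.0% and 89.1% in Il1a-/- tumours, a difference of 13.8 points (exact two-sided permutation p = 0.333, the smallest possible). The gate on ILC1 genes asks for 0 UMIs and so depends on depth. With barcodes of at least 1000 UMIs thinned to 1000, the shares were 89.1% and 89.0% in WT and 88.2% and 94.9% in Il1a-/-. The groups overlapped, and the difference was 2.47 points (exact permutation p = 1). The same barcodes without thinning gave 12.1 points. At equal depth the first Il1a-/- tumour lay below both WT tumours.

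**Figure D2:**
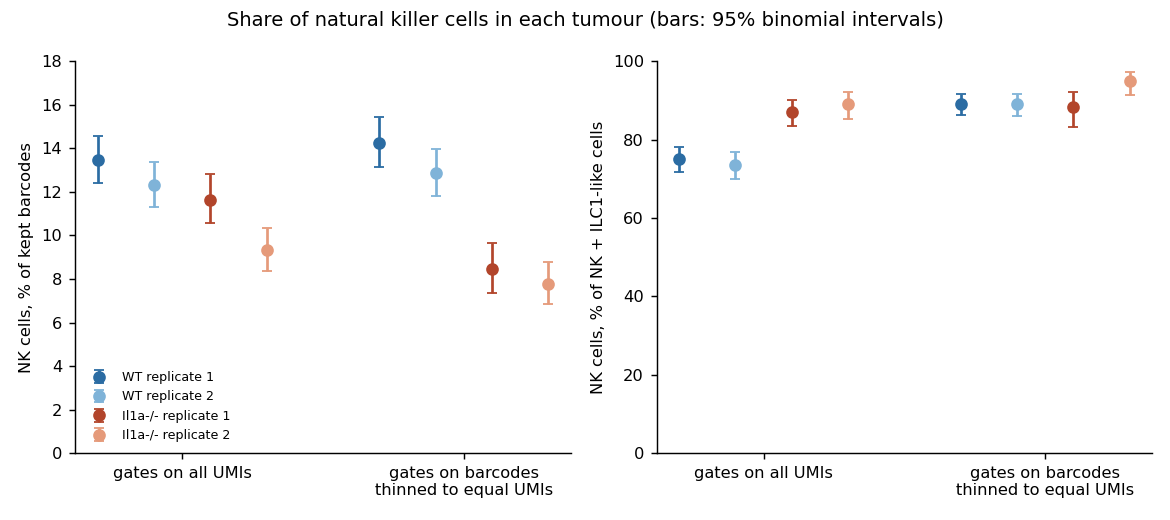
NK cells as a percentage of kept barcodes (left axis panel) and of NK plus ILC1-like cells (right axis panel) in each tumour. Gates were set on all UMIs, or on barcodes of at least 1000 UMIs thinned to 1000, with shallower barcodes left out. Points are tumours and bars are 95% binomial intervals. On the left the Il1a-/- tumours lie lower, most clearly after thinning (8.45% and 7.78%), while on the right the gap of 13.8 points shrinks to 2.47 points after thinning.

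UMIs were then summed over the NK cells of each tumour and genes compared between genotypes. Below, CPM values of this comparison are scaled with TMM (trimmed mean of M values) factors. Fold changes are log2 of Il1a-/- over WT. Their standard error is the size of the log2 value divided by the square root of the test's F statistic. The p-values are from edgeR's quasi-likelihood test, adjusted (Benjamini-Hochberg) over the 8396 genes tested. With 2 tumours a genotype they measure the spread between these tumours, which also differ in depth. The test estimates a gene's spread with information shared across genes, so a small p does not rest on that gene's own values alone. A sum does not tell apart fewer cells with a transcript from fewer transcripts per cell. Of the 8396 genes, 730 (8.69%) passed an adjusted p of 0.05: 372 (4.43%) were higher and 358 (4.26%) lower in Il1a-/- hosts. The median log2 fold change of all genes tested was -0.01. The WT and Il1a-/- values did not overlap for 53.7% of all genes tested. Without the second WT tumour the count fell from 730 to 42 genes, 9 higher and 33 lower, and without the first or the second Il1a-/- tumour to 417 or 265. Without the second WT tumour, the lists described below had 1 call each among cytotoxicity genes, secreted factors, ILC1 genes and interferon genes, 2 each among mature-stage, heat-shock and myeloid genes, 8 among tumour and milk genes, and 0 in every other list.

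Most of the genes with the smallest p among the lower ones are known from mammary epithelium and milk, not from lymphocytes. Among the 12 named by rule were Epcam, Krt18, Clu, Krt8, Fxyd3, Csn3, Clca3a2, Cd81, Eif3j2, Ifitm3 and Capg. Csn3, the gene of kappa-casein, gave 1157, 395, 0 and 0 UMIs, at least 162-fold lower in the Il1a-/- cells against a floor of 3 UMIs over the group. Its level in free RNA, taken from barcodes with at most 100 UMIs, was 1579.9 and 810.4 CPM in WT and 130.4 and 4.08 CPM in Il1a-/- libraries. Epcam, an epithelial adhesion gene, gave 291, 273, 1 and 1 UMIs in NK cells, and 45.0% and 72.2% of the WT UMIs lay in 1 barcode of each tumour. All 8 tumour and milk genes tested and 7 of 8 fibroblast genes tested were called lower. After leaving out the 16, 7, 1 and 4 NK barcodes with at least 10 UMIs of fibroblast, tumour or plasma cell genes, 4 tumour and milk genes and 0 fibroblast genes were called lower, and over all genes 612 were called, 372 higher and 240 lower. This set was left out after the data had been seen. Of the original calls, 331 of 372 higher and 197 of 358 lower genes passed again. In NK cells of both tumours of the genotype where they were higher, 278 of the 372 higher genes and 160 of the 358 lower genes stood above their level in free RNA. Over all genes tested, 49.3% stood above free RNA in both Il1a-/- and 64.1% in both WT libraries.

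Markers of other cells were read in the same sums, as the summed CPM of each list in the order WT 1, WT 2, Il1a-/- 1 and Il1a-/- 2, and their part in the other differences was not tested. Tumour and milk genes summed to 2621, 969, 47.5 and 36.7 CPM in NK cells, and to 6555, 3394, 937 and 279 CPM in free RNA. Fibroblast genes summed to 1040.0, 3464, 486 and 960.3 CPM. Myeloid genes summed to 824, 467, 305 and 291 CPM, with Cst3 and Cd74 called lower among 6 tested; with gates on thinned barcodes Cd74 turned to 0.23. Each of these sums was highest in a WT tumour. The T cell list, 1289, 1284, 1239 and 1236 CPM, was level across tumours and had 0 of 5 genes called. The genes of plasma cells summed to 145, 103, 83.7 and 2977 CPM, and in the last tumour 1692 of 1696 Igkc UMIs and 389 of 389 Jchain UMIs came from 1 barcode. Neutrophil, mast cell and erythroid lists had 0 calls, and the list of plasmacytoid dendritic cells had 1, Irf8, of 4 tested.

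**Figure D3:**
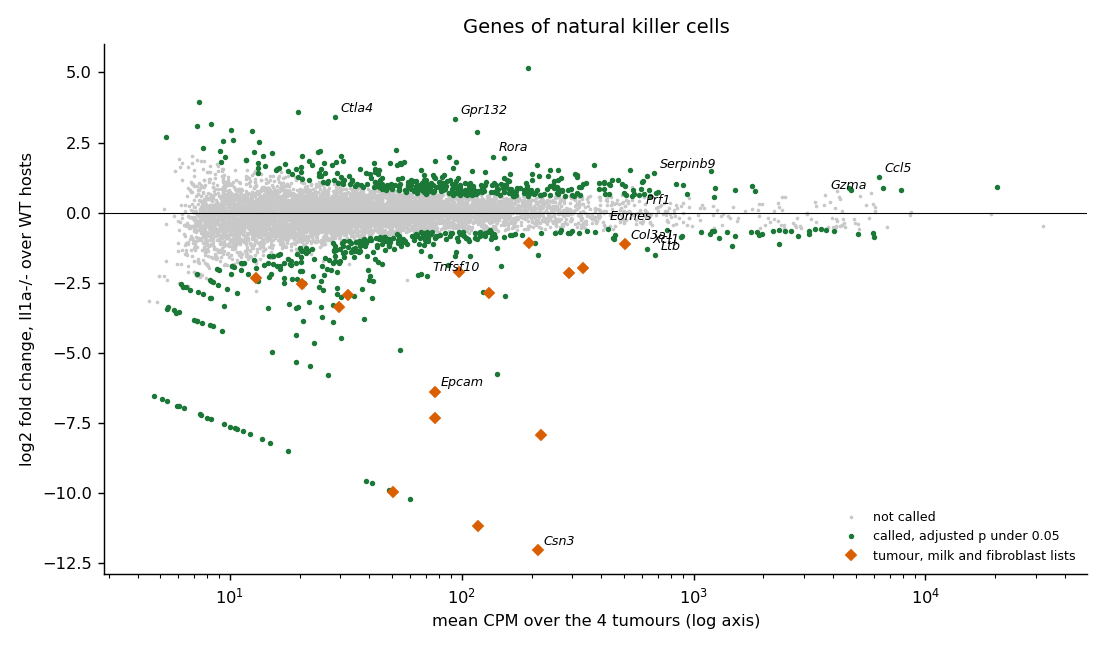
Log2 fold change (Il1a-/- over WT hosts) against the mean CPM over 4 tumours (log axis) for the 8396 genes tested in NK cells; green points passed an adjusted p of 0.05, orange diamonds are tumour, milk and fibroblast genes and grey points were not called. The diamonds lie below 0 and reach -12.03 (Csn3), while genes of NK cell function such as Ltb, Xcl1, Ccl5 and Serpinb9 lie within about 2 units of 0.

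Among the higher genes, the leading ones were Gpr132, Eif3j1, Rora, Samsn1, Dgat1, Vps37b, Irak2, Mxd1, Fosl2, Lyst, Gramd3 and Serpinb9. Gpr132 (a G protein-coupled receptor gene; chr12:112850873-112868228 in GRCm38) stood at 19.6 and 13.8 CPM in the WT and 185 and 156 CPM in the Il1a-/- tumours. This was the call with the smallest p on the higher side, a 10.1-fold difference (log2 3.34 ± 0.22, adjusted p = 6.78e-08), and it was called under all 16 alternatives. Free RNA held it at 75.1 and 49.9 CPM in WT and 161 and 308 CPM in Il1a-/- libraries, more than in NK cells in every library but the first Il1a-/- one, and the part of free RNA in this result was not tested. Rora (chr9:68653786-69388246), a nuclear receptor gene tied to innate lymphoid cells, stood at 65.7 and 44.8 CPM against 206 and 229.5 CPM (log2 1.99 ± 0.21, adjusted p = 1.12e-05). Irak2, a kinase gene that acts below interleukin-1 and Toll-like receptors, stood at 46.6 and 25.5 CPM against 138 and 144 CPM (log2 1.98 ± 0.24). Fosl2, a member of the AP-1 family, rose from 313 and 231 to 816 and 763 CPM (log2 1.54 ± 0.19). The remaining members had log2 differences of 1.40 to 2.88. Groups that do not overlap were a condition for naming all of these genes. Each was also called higher in ILC1-like cells. In T cells Eif3j1, Dgat1, Vps37b, Irak2, Fosl2, Lyst and Serpinb9 were called higher, and Gpr132, Rora, Samsn1, Mxd1 and Gramd3 were not called. Free RNA of each was higher in both Il1a-/- than in both WT libraries. For Dgat1 it stood at 68.4 and 61 CPM in WT and 239 and 410 CPM in Il1a-/- libraries, and its part was not tested. Eif3j1 and Eif3j2 are near-identical copies: Eif3j1 was higher (log2 2.88 ± 0.22) and Eif3j2 lower (log2 -5.78 ± 0.60), and reads may be split between them, so both are uncertain.

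Inhibitors of granzymes passed the test, and the granzyme and perforin genes did not. Of 16 cytotoxicity genes tested, Serpinb9, Serpinb6b and Serpinb9b rose, Tnfsf10 fell and 12 were not called. The list's median log2 fold change was 0.17. For this and each later list, the share over all genes tested was 4.43% higher and 4.26% lower. Gzma stood at 1645 and 4117 CPM in WT and 3331 and 5669 CPM in Il1a-/- tumours (log2 0.64 ± 0.30, adjusted p = 0.206). For Gzmb, the gene of granzyme B, the values were 166 and 589 CPM in WT against 561 and 848 CPM in Il1a-/- tumours (log2 0.91 ± 0.36, adjusted p = 0.127), and for Prf1, the pore-forming perforin, 401 and 736 CPM against 499.7 and 712 CPM (log2 0.10 ± 0.24, adjusted p = 0.857). In these 3 genes the groups overlapped, and the first WT tumour was the lowest. Gzma and Gzmb passed in 2 of 16 alternatives each, and their log2 values ranged over the alternatives from 0.12 to 1.44 and from 0.25 to 2.08. The other granzymes, Gzmd, Gzme, Gzmf, Gzmg, Gzmk and Gzmn, had at most 8.15 CPM (Gzmd) in any tumour's NK cells.

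Serpinb9, which protects the killer cell from its own granzyme B, was 2.64-fold higher in Il1a-/- hosts, at 332 and 409 CPM against 963 and 996 CPM (log2 1.40 ± 0.18, adjusted p = 8.32e-05). Serpinb6b, a related inhibitor, stood at 254 and 274 CPM against 506 and 608 CPM (log2 1.08 ± 0.18, adjusted p = 0.00101), and Serpinb9b at 11.2 and 25 CPM against 79.1 and 93.7 CPM (log2 2.25 ± 0.30). All 3 were above free RNA in both Il1a-/- libraries. In ILC1-like cells Serpinb9 stood at 249.9, 279, 960.1 and 977 CPM. Tnfsf10, the gene of the death ligand TRAIL, fell from 114 and 114 CPM to 47.5 and 8.15 CPM (log2 -2.27 ± 0.37, adjusted p = 8.23e-04), and the second Il1a-/- tumour, with 6 UMIs, was the lowest.

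Secreted factors moved both ways: of 10 cytokine and chemokine genes tested, 3 rose and 3 fell, against 4.43% and 4.26% of all genes tested. Ccl5, a chemokine gene that draws T cells and dendritic cells, stood at 3174 and 4221 CPM in WT and 8344 and 9479 CPM in Il1a-/- tumours (log2 1.27 ± 0.19, adjusted p = 3.59e-04), above its free RNA of 379 and 639 CPM in WT and 3366 and 2432 CPM in Il1a-/- libraries. Ccl4 stood at 382 and 413 CPM against 649 and 746 CPM (log2 0.81 ± 0.17, adjusted p = 0.00643). Ccl9 also passed, but with 4, 18, 8 and 23 UMIs and less than in free RNA. Xcl1, which recruits cross-presenting dendritic cells, fell from 951 and 822 to 479 and 261 CPM (log2 -1.28 ± 0.23, adjusted p = 0.00174). Ltb, the gene of lymphotoxin beta, fell from 1034 and 979 to 379.9 and 329 CPM (log2 -1.51 ± 0.18, adjusted p = 4.68e-05), a 2.85-fold difference. Flt3l, a growth factor gene for dendritic cells, fell from 68.5 and 61.6 to 40.7 and 25.8 CPM (log2 -1.03 ± 0.26, adjusted p = 0.02). Xcl1, Ltb and Tnfsf10 were above their free RNA level in both WT libraries and were called lower again without the mixed barcodes. Both conditions also chose the 20 lower genes above free RNA taken up below, and these genes are among them. In the second Il1a-/- tumour Tnfsf10 stood at 8.15 CPM in NK cells and at 20.4 CPM in free RNA. Ifng, the gene of interferon gamma, stood at 86.4 and 72.3 CPM against 76.9 and 89.6 CPM and its groups overlapped (adjusted p = 0.848), and Ccl3 was not called either (87 and 85.6 CPM against 92.7 and 55.7 CPM).

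**Figure D4:**
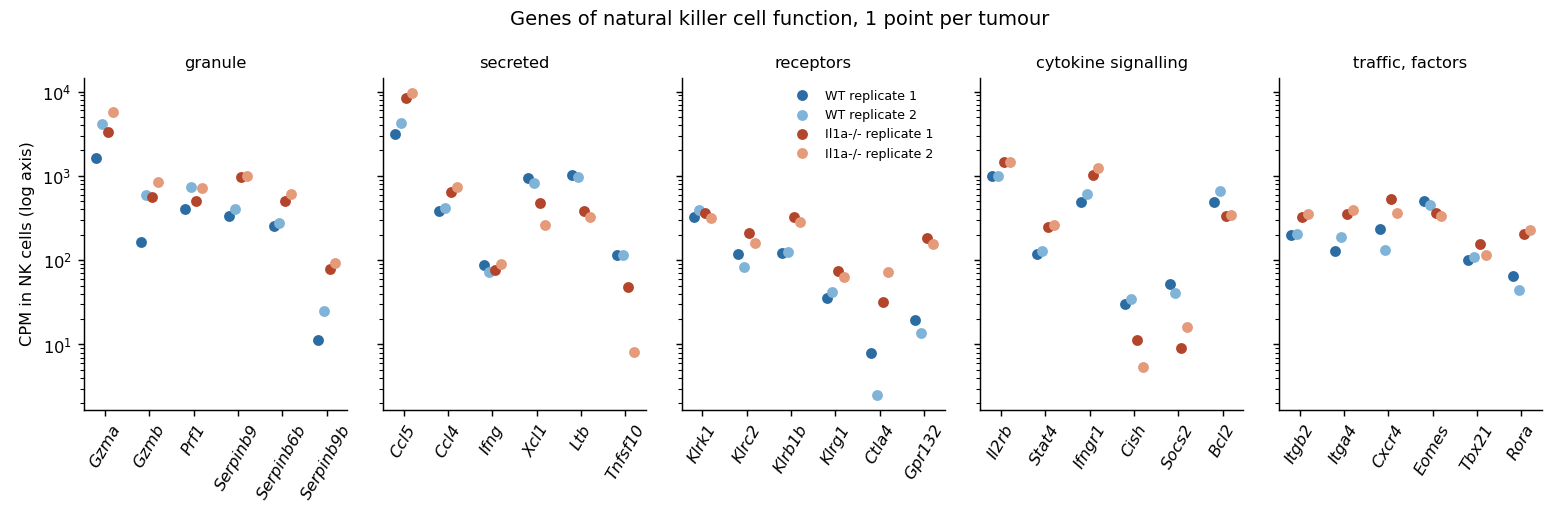
CPM (log axis) of 30 genes in the NK cells of each tumour, grouped by role, with blue points for the WT and red points for the Il1a-/- tumours. Gzma, Gzmb, Prf1, Klrk1 and Ifng overlap between genotypes, Serpinb9, Ccl5 and Gpr132 are higher in both Il1a-/- tumours, and Ltb, Xcl1, Tnfsf10, Cish and Socs2 are lower in both.

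Of the genes that mark NK identity, 3 of 18 tested rose (Il2rb, Txk and Klrc2), none fell, and 15 were not called, with a median of 0.09. Among all genes tested 4.43% rose and 4.26% fell. Eomes stood at 498 and 446 CPM in WT and 362 and 334 CPM in Il1a-/- tumours, a lower value in both that did not pass the test (log2 -0.44 ± 0.18, adjusted p = 0.129). Without the mixed barcodes it did (log2 -0.56 ± 0.17, adjusted p = 0.0414). Tbx21, the gene of T-bet, stood at 100.5 and 110.0 CPM against 154 and 115 CPM (adjusted p = 0.326). For the recognition receptors, 2 of 16 activating genes tested rose, Klrc2 (NKG2C; 119.5 and 83.5 against 210.3 and 159 CPM, log2 0.85 ± 0.21) and the adaptor Hcst (log2 0.70 ± 0.20; passed in 7 of 16 alternatives and not without the mixed barcodes, adjusted p = 0.0509), while Klrk1, the gene of NKG2D, stood at 327 and 395 CPM against 359.5 and 312 CPM with overlapping groups.

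Of 16 inhibitory or checkpoint receptor genes tested, 4 rose (Klrb1b, Klrg1, Ctla4 and Lag3), against 4.43% of all genes tested. None fell, and the median was 0.59. Klrb1b, an inhibitory receptor gene of the NKR-P1 family, stood at 121 and 124 CPM against 328 and 285 CPM (log2 1.32 ± 0.18, adjusted p = 1.73e-04), far above free RNA. Klrg1, a receptor gene of mature cells, stood at 35.4 and 41.8 CPM against 74.6 and 63.8 CPM (log2 0.82 ± 0.23, adjusted p = 0.0343), a call that held in 5 of 16 alternatives and not without the mixed barcodes (adjusted p = 0.0685). Ctla4 (log2 3.40 ± 0.45) and Lag3 (log2 2.55 ± 0.57) rested on 14, 5, 14 and 53 and on 3, 7, 7 and 12 UMIs. Lag3 passed in 8 of 14 alternatives. Both had a higher level in free RNA than in NK cells in every library, 217 and 296 CPM for Ctla4 in the Il1a-/- libraries, and the part of free RNA in these calls was not tested.

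Genes of early and of mature NK cells were read as separate lists, against 4.43% higher and 4.26% lower among all genes tested. Of 12 genes of the early, CD27-positive stage that were tested, 4 rose, among them Cd27, Emb and Cd28, while Xcl1 and Ltb fell and 6 were not called (median 0.62). Of 12 genes of the mature stage tested, Klrg1, Prdm1, Cma1, Irf8 and Ly6c2 rose, none fell and 7 were not called (median 0.82). Cd27 stood at 87 and 90.7 CPM in WT against 213 and 159 CPM in Il1a-/- tumours (log2 1.04 ± 0.19, adjusted p = 0.00244). Cma1, a chymase gene found in mature NK cells, stood at 16.3 and 50.4 CPM against 115 and 125 CPM (log2 1.83 ± 0.32, adjusted p = 0.00162). Irf8, a transcription factor that NK cells share with plasmacytoid dendritic cells, stood at 462 and 737 CPM against 1018 and 1376 CPM (log2 1.00 ± 0.21, adjusted p = 0.00687). Itgam (CD11b), at 43.8 and 82 CPM against 85.9 and 132 CPM, did not pass (log2 0.82 ± 0.26, adjusted p = 0.0594), nor did S1pr5 (adjusted p = 0.957). Without the second Il1a-/- tumour, 3 early genes were called higher and 1 lower, and 0 mature genes were called.

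Of 18 trafficking genes tested, 6 rose, among them S1pr4, Itgb2, Itga4, Cxcr4 and Selplg, against 4.43% of all genes tested. None fell, and the median was 0.53. Selplg passed in 8 of 16 alternatives and not without the mixed barcodes (adjusted p = 0.0767). Itga4, an integrin chain gene, stood at 128 and 189 CPM against 353 and 397 CPM (log2 1.24 ± 0.20, adjusted p = 9.22e-04). Cxcr4, a chemokine receptor gene, stood at 233 and 131 CPM against 527 and 363 CPM (log2 1.28 ± 0.24, adjusted p = 0.00291). The WT and Il1a-/- tumours did not overlap in either gene, as was so for 53.7% of all genes tested.

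Few UMIs of the interleukin-1 receptor gene were seen in these cells. Il1r1 gave 3, 5, 0 and 0 UMIs in the NK cells of the 4 tumours, too few to test, and Il1rl1 7, 4, 0 and 0. Il1rap, the shared partner chain, stood at 14.6 and 13.8 CPM in WT and 24.9 and 13.6 CPM in Il1a-/- tumours (adjusted p = 0.661).

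Of 28 tested genes of cytokine receptors and their signalling, 8 rose and 3 fell, against 4.43% and 4.26% of all genes tested. The median was 0.46. Those that rose were Il2rb and Il2rg (chains of the interleukin-15 receptor), Il12rb2 and Stat4 (the interleukin-12 pathway), Il18rap, Ifngr1, Socs3 and Bcl2l11. Stat4 stood at 117 and 129 CPM against 249 and 259 CPM (log2 1.05 ± 0.18, adjusted p = 0.00131), and Ifngr1, a chain of the interferon gamma receptor, at 492 and 612 CPM against 1024 and 1239 CPM (log2 1.04 ± 0.18, adjusted p = 0.00161). Il2rb stood at 982 and 989 CPM against 1456 and 1464 CPM, close together within each genotype (log2 0.57 ± 0.17, adjusted p = 0.0396), but it passed in only 6 of 16 alternatives and not without the mixed barcodes (adjusted p = 0.0998). Il12rb2 passed in 6 of 16 and not without the mixed barcodes either (adjusted p = 0.0592), and Il2rg passed in 7 of 16. The pro-death gene Bcl2l11 (BIM, chr2:128126038-128162547) rose from 281 and 266 to 624 and 614 CPM (log2 1.18 ± 0.17, adjusted p = 3.14e-04). It lies on the same chromosome as Il1a, as does Eif3j1 (chr2:122028546-122056598). The part of DNA linked to the knockout in these rises was not tested. Bcl2l11 also rose in T cells (log2 1.57 ± 0.24, adjusted p = 0.0301) and in ILC1-like cells (log2 0.96 ± 0.22, adjusted p = 0.0161). The survival gene Bcl2 fell from 488 and 669 to 332 and 341 CPM (log2 -0.78 ± 0.19, adjusted p = 0.0151). The STAT5 feedback genes Cish and Socs2 fell as well: Cish from 30.3 and 34.6 to 11.3 and 5.43 CPM (log2 -2.06 ± 0.43, adjusted p = 0.00536) and Socs2 from 52.2 and 41.3 to 9.04 and 16.3 CPM (log2 -1.78 ± 0.35, adjusted p = 0.00392). In these 2 genes free RNA was above the NK level in every library, and without the mixed barcodes Socs2 no longer passed (log2 -0.69 ± 0.42, adjusted p = 0.345).

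Immediate-early genes, which cells switch on soon after stimulation, also moved. Of 29 tested, 9 rose (Fosl2, Junb, Nr4a2, Nr4a3, Dusp5, Btg1, Ppp1r15a, Rgs1 and Rgs2), 2 fell (Jun and Ier3), and the median was 0.36. The shares of all genes tested were 4.43% higher and 4.26% lower. Ier3 did not hold: without the mixed barcodes its value was 1.30 ± 0.46 (adjusted p = 0.085). Nr4a3, a nuclear receptor gene induced by receptor signalling, stood at 188 and 167 CPM against 450.0 and 448 CPM (log2 1.34 ± 0.18, adjusted p = 1.35e-04). Crem, outside the list and among the 20 strongest higher genes above free RNA, stood at 145 and 126 CPM against 312 and 458 CPM (log2 1.52 ± 0.20). Jun went the other way, from 169 and 149 to 72.4 and 42.1 CPM (log2 -1.54 ± 0.23, adjusted p = 4.50e-04). Fosl2, Nr4a3 and Crem also rose in ILC1-like cells (log2 1.67 ± 0.23, 1.59 ± 0.25 and 2.025 ± 0.25). In T cells their values were 1.62 ± 0.25, 1.19 ± 0.28 (not called) and 1.34 ± 0.24. The 29 genes summed to 9819 and 7912 CPM in WT and 14112 and 13540.5 CPM in Il1a-/- NK cells. In free RNA they summed to 7589 and 5863 against 11473 and 16023 CPM, and the part of free RNA was not tested. The NF-κB list had 3 of 18 tested genes higher, among them Tnfaip3 (313 and 273 against 692 and 611 CPM, log2 1.15 ± 0.18, adjusted p = 4.99e-04), and 1 lower. Of the interferon response genes, 4 of 19 rose (Isg15, Irf7, Irf1 and Ly6c2) and 1 fell.

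ILC1 genes that the rule did not use split in both directions: of 17 tested, Rora and Gpr183 rose, and Tnfsf10, Inpp4b and Xcl1 fell (median -0.07). All genes tested gave 4.43% higher and 4.26% lower. Inpp4b fell from 157 and 114 to 52 and 27.2 CPM (log2 -1.86 ± 0.27, adjusted p = 3.03e-04). Cdh1, the E-cadherin gene, stands in the tumour list but was also in ILC1-like cells at 136, 84.6, 107 and 26.7 CPM; in NK cells it fell from 55.6 and 50.9 to 9.04 and 2.72 CPM (log2 -3.35 ± 0.43, adjusted p = 1.04e-04), and it did so without the mixed barcodes too (log2 -3.15 ± 0.45). When cells were gated after thinning barcodes of at least 1000 UMIs to 1000, all 5 called ILC1 genes passed again. Gpr183 had the smallest log2 difference (1.05).

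Among the 20 lower genes with the smallest p that stood above free RNA were also Ptpn6, the gene of the phosphatase SHP-1 that carries inhibitory receptor signals, and Pacsin1. They were taken up after their values had been seen. Ptpn6 fell from 241 and 223 to 81.4 and 48.9 CPM (log2 -1.89 ± 0.23, adjusted p = 5.98e-05). Pacsin1 fell from 70.2 and 73.9 to 18.1 and 2.72 CPM (log2 -3.05 ± 0.41, adjusted p = 1.54e-04). Of 84 ribosomal protein genes tested, 22 fell and 3 rose (median -0.39), and of 13 mitochondrial genes 5 fell and 2 rose. mt-Atp8 rose from 212 and 133 to 685 and 454 CPM while mt-Atp6 fell from 8156 and 7368 to 3830.3 and 4758 CPM. Of 24 glycolysis and hypoxia genes 1 rose, Vegfa, at 144 and 128 CPM against 312 and 355 CPM (log2 1.30 ± 0.18, adjusted p = 2.24e-04), and of 14 heat-shock genes 3 fell. TGF-β genes gave 1 rise and 1 fall among 12, and replication genes 2 rises and 3 falls among 18. These counts stand beside 4.43% higher and 4.26% lower among all genes tested.

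Whether the genotype difference of NK cells departed from that of T cells in the same tumours was tested with an interaction term over 8 sums. Of 10231 genes tested, 34 (0.332%) differed: 12 (0.117%) had a larger and 22 (0.215%) a smaller Il1a-/- minus WT difference in NK cells. In T cells alone, 251 of 10888 genes were called (2.31%), 1.11% higher and 1.19% lower. Gpr132 led the first side, with 3.34 ± 0.22 in NK cells and 0.94 ± 0.31 in T cells, a difference of 2.40 ± 0.28 (adjusted p = 0.00528). Ikzf2, the gene of Helios, differed by 1.97 ± 0.23 (adjusted p = 0.00528) and Klrg1 by 2.76 ± 0.41 (adjusted p = 0.0231), both with positive values in NK cells and negative values in T cells. Fgl2 and Wls completed the first 5, at 1.18 ± 0.18 and 1.42 ± 0.23.

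On the other side, the 5 genes with the smallest p were Prf1, Klrk1, Ccl5, Klrc2 and Klrc1. Inpp4b and Ptpn6 were also among the 22 genes there. Prf1 differed by -2.48 ± 0.26 (adjusted p = 0.00528): in T cells it stood at 16.4, 38.8, 176 and 138 CPM in the order of tumours given above, in NK cells at 396, 721, 499.7 and 698 CPM. Ccl5 rose in both classes, by less in NK cells (1.27 ± 0.19 against 3.41 ± 0.32, difference -2.05 ± 0.24, adjusted p = 0.00528). Klrk1, Klrc2 and Klrc1 differed by -1.87 ± 0.21, -1.83 ± 0.22 and -2.10 ± 0.27. In the T cells, Cd8b1, a CD8 chain gene, stood at 72.5, 122, 634 and 380.4 CPM and Cd4 at 155, 135, 70.7 and 113 CPM, so the levels of both genes in that class moved with genotype, and their part in these differences was not tested. Gpr132, Ikzf2, Prf1 and Ccl5 were called in all 8 alternatives of this test. Fgl2 was lost without either Il1a-/- tumour, Klrg1 without the first of them, Klrk1, Klrc2 and Klrc1 without the second, and Wls without either and with a minimum of 1000 UMIs a cell.

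**Figure D5:**
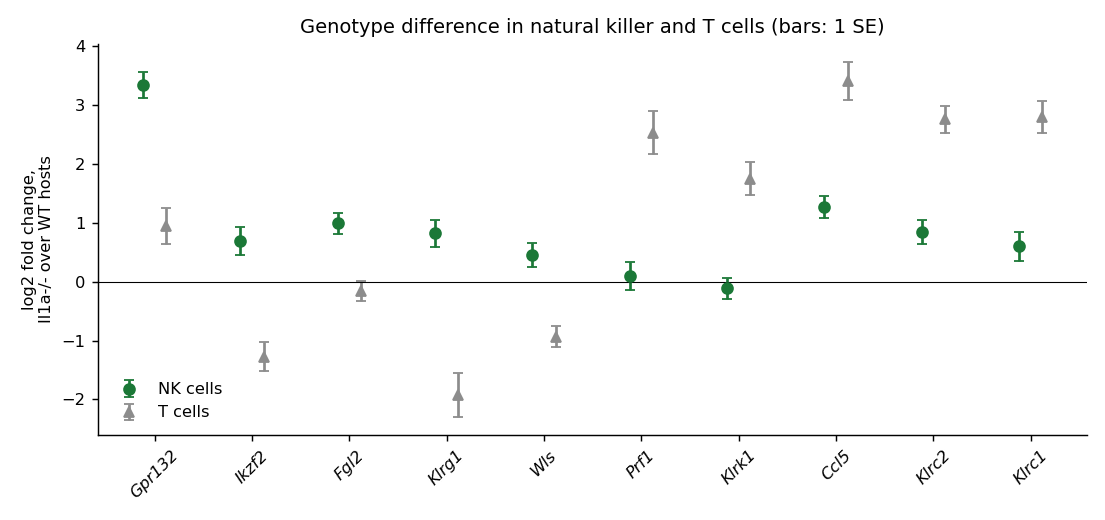
Log2 fold change (Il1a-/- over WT hosts) in NK cells (green circles) and T cells (grey triangles) for the 10 genes with the smallest p in the interaction test, 5 on each side; bars are 1 standard error. For Gpr132, Ikzf2, Fgl2, Klrg1 and Wls the NK value is the higher, and for Prf1, Klrk1, Ccl5, Klrc2 and Klrc1 the T cell value is.

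Against ILC1-like cells, 2 of 7741 genes tested (0.0258%) differed, 1 on each side (0.0129%), with 361 at an unadjusted p under 0.05. Gzmb stood at 163, 578, 561 and 831 CPM in NK and 255, 683, 249 and 373 CPM in ILC1-like cells, and its genotype difference was larger in NK cells by 1.69 ± 0.22 (adjusted p = 1.55e-04). Ly6a differed by -3.08 ± 0.47 (adjusted p = 0.00219). Both calls were lost when either Il1a-/- tumour, with 56 and 38 ILC1-like cells, was left out. The Ly6a call was also lost in 4 other alternatives, among them gates on thinned barcodes, where the difference was -0.17. The Ly6a value of NK cells changed sign with few barcodes: its log2 fold change in NK cells was -0.76 ± 0.31 with all barcodes and 2.82 ± 0.48 (adjusted p = 3.99e-04) without the 28 mixed ones. In ILC1-like cells alone, 204 of 5571 genes were called (3.66%), 2.15% higher and 1.51% lower. Gpr132 rose there as well (log2 3.11 ± 0.38), as did Ccl5 (log2 1.84 ± 0.27).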

How the data were processed

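Per the file headers and the submitters' processing notes, the authors made the deposited UMI counts with Cell Ranger 3.1.0 on a reference that joined human and mouse features (mm10), as raw matrices with empty droplets, 1 tumour each. UMIs of human features were left out. Barcodes with at least 500 UMIs, 250 genes and at most 20% mitochondrial UMIs were kept, and cells were gated and not clustered. Doublets stayed in; an alternative removed those that Scrublet (scanpy 1.11.5) scored highest. UMIs were summed over the gated cells of each tumour and tested with edgeR 4.0.16 (filterByExpr, TMM, quasi-likelihood, Benjamini-Hochberg over all genes tested, without the 12 genes of the rule). The interactions used 1 sum per class and tumour with the tumour as a block. On simulated counts, 42.4% of 2-fold and 85.3% of 4-fold changes were recovered in the NK comparison, with 6 false calls among 8133 genes. In the test against T cells 9% and 67% were recovered, with 1 false call among 8396 genes. The simulation gave all genes a common dispersion and did not model mixed barcodes or free RNA. Its false calls therefore do not measure those of the real data. DESeq2 1.42.0 was an alternative. Coordinates are from GENCODE vM21 on GRCm38.

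The cells, gene lists and tests were chosen with earlier results of these data known. Named by rule were the 12 higher and 12 lower genes with the smallest p among called genes whose groups did not overlap, a preset list, the 5 genes with the smallest p on each side of an interaction, and, against other classes, the 12 genes with the largest median ratio on each side, from a mean of 50 CPM over both classes. The 20 strongest genes above free RNA, and others named from the lists, were added after their values were seen. Levels set against ILC1-like or T cells are CPM of all summed UMIs. Some genes that the rules name are not reported here. Replicate numbers were not taken as pairs. The labels name the replicates without saying more about their source, so p-values cover the spread between these tumours only.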

Additional observations from a re-analysis of the deposited data

Results flagged for a closer look

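The genotype difference departed between NK and T cells in 10 named genes, by the test of the difference itself. As the log2 difference in NK cells minus that in T cells, it was 2.40 for Gpr132, 1.97 for Ikzf2, 1.18 for Fgl2, 2.76 for Klrg1 and 1.42 for Wls. It was -2.48 for Prf1, -1.87 for Klrk1, -2.05 for Ccl5, -1.83 for Klrc2 and -2.10 for Klrc1. Of these genes, Fgl2 rose in NK cells (log2 0.99 ± 0.18, adjusted p = 0.0019 by edgeR) and was not called in T cells. Ikzf2 was called in neither class alone (log2 0.69 ± 0.24 in NK and -1.27 ± 0.25 in T cells).

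Between NK and ILC1-like cells, the genotype difference departed by 1.69 for Gzmb and by -3.08 for Ly6a.

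Human features of the combined reference, which none of the comparisons used, held 1381 and 1514 UMIs in the WT and 509 and 1037 UMIs in the Il1a-/- libraries, at most 0.00759% of the mouse UMIs of a library.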

How the results depend on the processing

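The share of NK cells among kept barcodes was lower in Il1a-/- hosts under all alternatives run, with differences from -1.26 points (without the second Il1a-/- tumour) to -5.44 points (gates on thinned barcodes). Over 121 called gene values, 1809 refits under alternatives gave 1528 values of the same direction and call, 278 that lost the call and 3 that reversed (Ier3 and Cd74); 83 of the losses came from leaving out the second WT tumour and 47 from leaving out the second Il1a-/- tumour. The 730 genes called became 277 with DESeq2 (165 higher and 112 lower), 445 with cells of at least 1000 UMIs, 435 with at least 2 UMIs of Ncr1 and Klrb1c, 318 with sums thinned to the smallest total, and 42 to 866 when 1 tumour was left out. The share of higher genes among the calls was 51.0%, and 40.7% with no filter on low counts, 60.8% without mixed barcodes and 21.4% without the second WT tumour. The 34 genes that departed from T cells became 21 with at least 1000 UMIs, 53 with gates on thinned barcodes, and 11 to 194 when 1 tumour was left out. The 2 that departed from ILC1-like cells became 0 to 7 when 1 tumour was left out, 1 with doublets removed and 1 with the added T cell gate. The causes were not tested, except that leaving out tumours, cells or UMIs leaves fewer of them by construction; a lone tumour is assumed to vary like the other group.

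With the replicate number as a block, 1296 genes were called, all 730 among them. The pairing behind the numbers was not shown: the differences between replicates 1 and 2 correlated across 8400 genes with r = 0.11 between genotypes, and with r = 0.30 across the 1509 genes of at least 100 CPM. The labels do not tie a number to a collection day. Of the named genes that were not called without it, Gzma (log2 0.73, adjusted p = 4.46e-06), Gzmb (log2 1.07, adjusted p = 2.39e-10), Eomes (adjusted p = 0.0369), Itgam (adjusted p = 0.00214), Il18r1, Il7r, Ikzf2, Klrc1 and Ly6a passed with the block. Calls among cytotoxicity genes went from 3 to 6 higher.

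Of the called genes, Ier3 turned from -1.53 to 1.53 with gates on thinned barcodes and to 1.30 without mixed barcodes, and Cd74 to 0.23 with gates on thinned barcodes. The sign also turned in values that were not called. With 1 tumour left out, the log2 fold changes ranged from -0.28 to 0.59 for Prf1, -0.050 to 0.21 for Ifng, -0.61 to 0.12 for Ccl3, -0.48 to 0.57 for S1pr5, -0.040 to 0.82 for Il1rap, -0.15 to 0.047 for Tgfbr2 and -0.25 to 0.019 for Klrk1. With gates on thinned barcodes, Ifng gave -0.095, Ccl3 0.16, Tbx21 -0.13, Tgfbr2 0.21 and Ly6a 1.36. With at least 2 gate UMIs, Ccl3 gave 0.36, S1pr5 0.037, Il1rap -0.041 and Tgfbr2 0.042. Prf1 gave -0.00558 with at least 1000 UMIs and -0.015 without mixed barcodes, where Ly6a gave 2.82; Ifng gave -0.12 with the T cell gate and S1pr5 0.22 with thinned sums. Depth limits genes of few UMIs in the first Il1a-/- tumour, whose NK cells held 442227 UMIs in all against 2002428 in the second WT tumour.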
